A study of Homo sapiens with 18 samples.

Results

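The p53 target genes CDKN1A, MDM2, BAX, BBC3, FAS, TP53I3, GDF15, SESN1, ZMAT3 and BTG2, 10 of the 19974 protein-coding genes compared, were described by the peaks that chromatin immunoprecipitation with sequencing (ChIP-seq) found at them. The rule lists them by name as well-known p53 targets and uses no measured value. The choice was made with earlier results of these data known. Each was taken from its RefSeq start to its end on GRCh38 with 5 kb on each side, 405.69 kb of windows in all. One antibody bound RNA polymerase II (Pol II) as such, and the other 2 bound phosphorylated forms of its C-terminal domain, with phosphate on tyrosine 1 (Tyr1P) or on serine 2 (Ser2P). Ser2P is known as a mark of elongating polymerase that is richest toward gene ends. The cells were HCT116, a human colon cancer line, with INTS11 fused to an auxin-inducible degron (INTS11-AID). Integrator is a complex that cuts nascent RNA, INTS11 does the cutting, and the auxin IAA triggers degradation of the tagged INTS11. Per the titles, IAA and Control had 2 numbered libraries each for every antibody, and 4 further Pol II libraries without a number were labelled IAA+EGF, EGF, IAA and Control. All libraries, Control included, share the tagged INTS11.

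One protocol text covers every sample and names a serum-free period of 14 h, IAA at 500 µM for 1 h, EGF at 100 ng per µl for 30 min and interferon beta at 2000 U for 1 h. Which of these a given library received is left unsaid there. The deposited file of the unnumbered library titled IAA is named for EGF, and that of the library titled EGF is named for IAA, so these are called the libraries labelled IAA and EGF. Nothing in the labels says that replicates came from separate cultures, so their spread may be technical. Of 10 markers of colon epithelium, 6 had a Pol II peak within 1 kb of the gene's 5′ or 3′ end in both Control libraries. These were EPCAM, CDH1, KRT8, KRT18, KRT19 and CDX2, while KRT20, VIL1, CDX1 and LGR5 did not meet this rule. Of 13 markers of other cell types, 2 met it (APOA1 and RBFOX3). Whether p53 was active in these cells is not recorded by peak lists of polymerase and was not tested.

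p53 is a transcription factor that is kept low by the ubiquitin ligase MDM2 and accumulates after DNA damage and other stress. It binds sites near the starts or in the first introns of its targets and raises their transcription. The products arrest the cell cycle, start apoptosis, handle oxidative stress or feed back on p53 itself. Many of these genes hold polymerase that has paused just past the start, and Integrator is known for cutting short the transcripts of such paused polymerase. HCT116 is known as a line with wild-type p53.

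The promoters of CDKN1A, BTG2 and GDF15 are shown because the place and height of their start peaks are followed through the results. The bases are the 250 upstream of the listed start, from RefSeq on GRCh38.p14, 5′ to 3′ along the gene. Capitals mark the TATA box letters TATAAA, the CCAAT box letters CCAAT and the GC box letters GGGCGG, searched on both strands. The last pair of GC box matches of CDKN1A overlap each other by 1 base.
CDKN1A, chr6:36678464-36678713, strand +: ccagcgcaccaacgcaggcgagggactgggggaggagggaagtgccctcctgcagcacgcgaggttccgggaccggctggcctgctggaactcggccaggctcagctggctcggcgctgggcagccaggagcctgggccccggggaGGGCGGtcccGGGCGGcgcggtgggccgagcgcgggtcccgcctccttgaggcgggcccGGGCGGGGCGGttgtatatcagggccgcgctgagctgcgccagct
BTG2, chr1:203305269-203305518, strand +: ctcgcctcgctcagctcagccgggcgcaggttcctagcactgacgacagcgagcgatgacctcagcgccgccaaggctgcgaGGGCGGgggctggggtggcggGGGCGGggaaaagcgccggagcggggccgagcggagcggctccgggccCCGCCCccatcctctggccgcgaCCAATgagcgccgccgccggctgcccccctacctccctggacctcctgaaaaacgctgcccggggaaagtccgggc
GDF15, chr19:18385908-18386157, strand +: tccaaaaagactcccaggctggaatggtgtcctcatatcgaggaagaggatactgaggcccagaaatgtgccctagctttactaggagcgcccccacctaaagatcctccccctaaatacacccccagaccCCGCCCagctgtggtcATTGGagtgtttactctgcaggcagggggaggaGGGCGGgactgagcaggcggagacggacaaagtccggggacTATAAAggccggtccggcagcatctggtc
TATAAA stood in the promoter window of GDF15, from 29 to 24 bases before the start, and in that of no other of the 10 genes. The windows searched begin 250 bases before a listed start and run on past it, so some matches counted below lie downstream of the start. Of 34961 such RefSeq promoter windows, 11.5% held TATAAA. The 10 genes have 18 such windows, and 1 of them held TATAAA. Windows of close starts overlap, as at MDM2 and FAS, so the same letters can count in more than 1 window. The CCAAT box letters stood in 11 of these 18 windows, at 7 genes, against 34.6% of all windows. The GC box letters stood in 15 of the 18, at 8 genes, against 45%. An exact match to the p53 half-site consensus was found in 2 of the 18 windows, at FAS and SESN1, against 6.63% of all windows. Sites that differ from the consensus at any base were not searched, so a window without a match may still hold a p53 site. Those matches are shown in capitals with 10 bases on each side, since FAS and SESN1 are the genes with such letters in a window.
FAS, chr10:88991299-88991328, strand +: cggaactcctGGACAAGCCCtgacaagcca
SESN1, chr6:109009018-109009047, strand -: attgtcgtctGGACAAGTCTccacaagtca
The FAS match lay from 122 to 113 bases before a listed start, and the SESN1 match from 49 to 40 bases before one. These matches describe the letters in the windows only.

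Over the 10 genes, 396 peaks were found in the 16 immunoprecipitated libraries, and neither input library had a peak in any window. Pol II had 19 and 22 peaks in the IAA libraries, against 19 and 21 in the Control libraries. Tyr1P had 21 and 21 in IAA, against 21 and 22 in Control. These Pol II and Tyr1P groups overlapped. Ser2P had 46 and 42 peaks in IAA, against 33 and 21 in Control, and those groups did not overlap. With 2 libraries against 2, a two-sided exact permutation test cannot go below p = 0.333, so no difference between groups could pass a threshold, and groups are described by whether they overlap. The Ser2P lists were of very different lengths, with 99476 and 88987 peaks in IAA, against 37442 and 15420 in Control. As a share of its own list, the 10 genes held 0.0462% and 0.0472% of the Ser2P peaks in IAA, against 0.0881% and 0.136% in Control. The depth estimated from the lists, in fragments per kb, was 9.32 and 10.5 for Ser2P in IAA, against 13.6 and 3.30 in Control. For Pol II it was 5.05 and 6.06 in IAA, against 2.95 and 5.74 in Control, and for Tyr1P it was 7.44 and 7.03 in IAA, against 6.57 and 7.0 in Control. Its part in the peak counts was not tested.

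Counted by zone, more Ser2P summits lay inside genes and more than 1 kb past their ends in IAA. Interior summits, more than 1 kb from any start and from the end, numbered 19 and 15 in IAA and 7 and 4 in Control for Ser2P. MDM2 held 11 and 7 of these in IAA, against 5 and 2 in Control. BAX, FAS, TP53I3, GDF15 and BTG2 had none in any Ser2P library. Summits more than 1 kb past the end numbered 9 and 9 in IAA, against 4 and 4 in Control. Those within 1 kb of a start numbered 11 and 11, against 12 and 6. Ser2P summits within 1 kb of the end were fewer in IAA, with 6 and 6, against 9 and 7 in Control. End summits also numbered 2 and 2 in IAA, against 3 and 3 in Control for Pol II, and 2 and 2, against 6 and 5, for Tyr1P. For Pol II, BBC3 had 1 end summit in each Control library and none in IAA. A summit that lies farther downstream can pass from the end zone to the zone past the end. At CDKN1A the strongest Ser2P summit past the end lay at 557 and 546 bp in Control and at 1010 and 1023 bp in IAA. Fewer end summits thus need not be lost peaks. The share of all genes was not taken for these zone counts. Pol II interior summits numbered 2 and 3 in IAA, against 2 and 2 in Control, which overlapped. Tyr1P interior summits numbered 4 and 5 in IAA, against 2 and 3 in Control, which did not. BBC3 held 3 and 4 of these in IAA, against 1 and 1 in Control. No other gene had more Tyr1P interior summits in both IAA libraries, so this difference rests on BBC3. The share of the windows under Ser2P peaks was 7.59% and 7.73% in IAA, against 6.09% and 3.21% in Control. For Tyr1P it was 4.92% and 4.77%, against 4.47% and 4.50%, and for Pol II 3.16% and 3.85%, against 2.65% and 3.13%. All of these summed shares were higher in both IAA libraries, but for Pol II and Tyr1P this rests on BBC3. Without BBC3, a setting chosen after seeing the data, the Pol II share was 2.26% and 2.96% in IAA, against 2.39% and 2.88% in Control. For Tyr1P it was then 4.12% and 3.88% in IAA, against 3.94% and 4.05% in Control, and both antibodies overlapped between groups. The Ser2P share without BBC3 was 6.71% and 6.83% in IAA, against 5.29% and 2.79% in Control, still apart. The median difference in covered share over the 10 genes was -0.09 percentage points for Pol II, 0.19 for Tyr1P and 3.11 for Ser2P. Over all protein-coding genes it was 0, -0.05 and 2.06 in the same order. Over genes with a Pol II start peak in all 4 numbered libraries it was -0.08, -0.14 and 3.03.

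**Figure D1:**
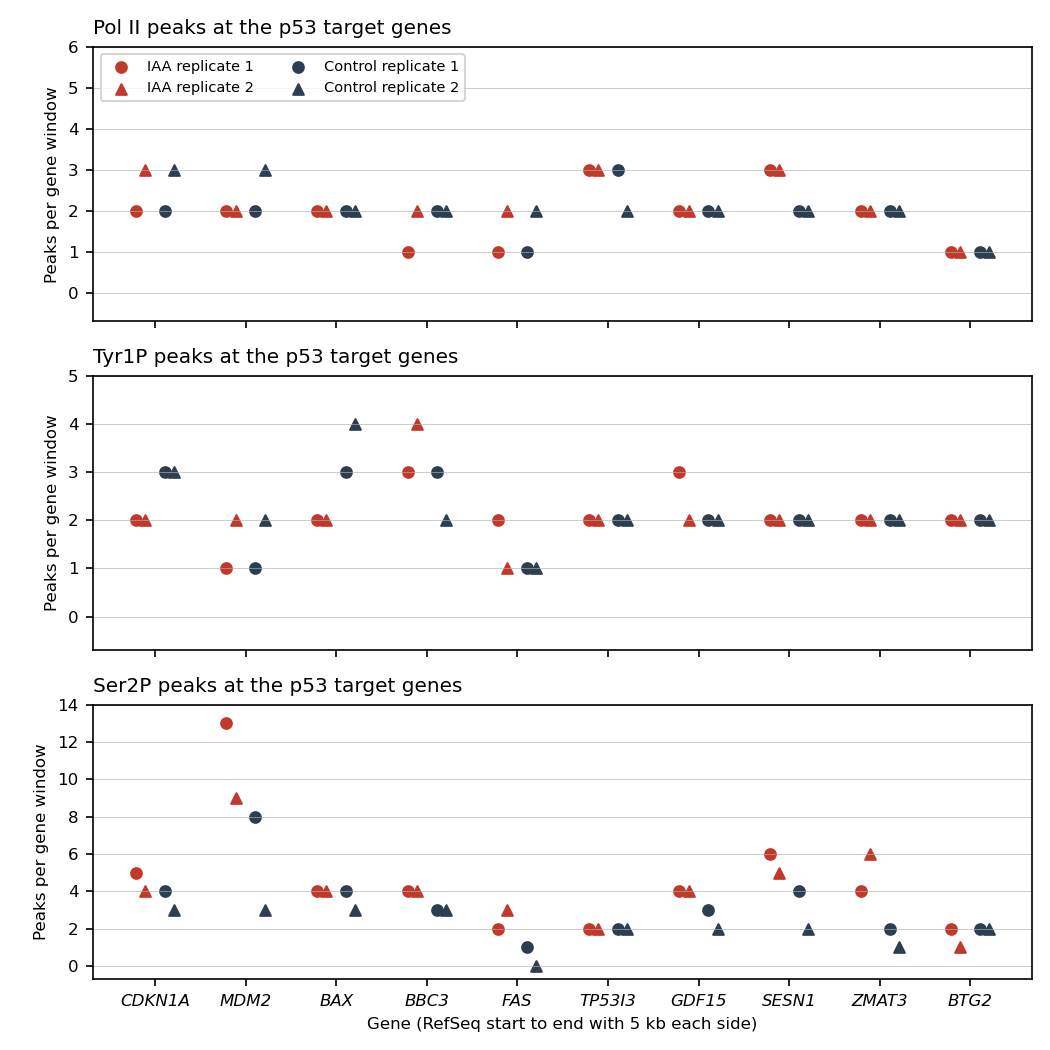
Peaks in the window of each p53 target gene (vertical axis, count) for Pol II, Tyr1P and Ser2P, with both IAA libraries left of both Control libraries (circle replicate 1, triangle replicate 2). Ser2P counts at MDM2 reached 13 and 9 in IAA, against 8 and 3 in Control, while Pol II counts stayed between 1 and 3 in every library.

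Read against all genes, the Ser2P gain in peaks was general. Shares of all genes are given here over the protein-coding genes for which the same measure could be taken. More Ser2P peaks in both IAA than in both Control libraries were found at 6 of the 10 genes (MDM2, BBC3, FAS, GDF15, SESN1 and ZMAT3), where 51.4% of all protein-coding genes met the same rule, so the share of the p53 targets is near the background. Of genes with a Pol II start peak in all 4 numbered libraries, 64.6% met it. None of the 10 had fewer Ser2P peaks, against 0.416% of all genes. With the Ser2P lists cut to equal length, 1 of the 10 genes had more Ser2P peaks in IAA, the difference between group means summed over the 10 genes was 1 peak in place of 17, and those at MDM2 and BBC3 turned to -0.5. The share of all genes under this cut is not given, so 51.4% and 64.6% are no background for that count. The median difference in Ser2P peaks was 1.25 over the 10 genes and 1.5 over all genes. A higher covered share for Ser2P was found at 7 of the 10, against 61.6% of all genes and 77.6% of those with a Pol II start peak. More interior Ser2P peaks were found at 4 of the 10 (MDM2, BBC3, SESN1 and ZMAT3), against 39.5% of all genes and 53.1% of those with a Pol II start peak. A wider Ser2P start peak was found at 4 of 5 (MDM2, TP53I3, ZMAT3 and BTG2), against 73.8% of all genes. For Pol II 1 gene, SESN1, had more peaks (3.63% of all genes) and none had fewer (10.1%). For Tyr1P 2 genes, CDKN1A and BAX, had fewer peaks (12.6% of all genes) and none had more (4.52%). These Pol II and Tyr1P shares are over all genes, with or without a peak. They are not given for genes with a Pol II start peak.

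In the numbered libraries the height of the start peaks was lower in IAA for Pol II and Tyr1P at most of the genes, and higher for Ser2P at those that could be compared. The fragments stacked at a summit were computed from the deposited fold and p, and divided by the genome-wide background of the library, which gives a height as a multiple of background. This measure was chosen after the values were seen. For Tyr1P the start peaks of 9 of 9 genes with such a peak in all 4 libraries were lower in both IAA libraries, against 90.2% of all genes. For Pol II 6 of 9 were lower (CDKN1A, BAX, FAS, GDF15, SESN1 and ZMAT3), against 69.7% of all genes, and none was higher (5.52%). A Pol II start peak in all 4 numbered libraries was present at 9 of the 10 genes, all but BBC3, against 54.3% of all genes. No Tyr1P start peak was higher (2.37% of all genes). For Ser2P 5 of 5 were higher (MDM2, TP53I3, SESN1, ZMAT3 and BTG2), against 91.7% of all genes, and none was lower (0.954%). These shares are near those of all genes with a start peak. SESN1 is counted by its strongest start, which is not the same start in every library, so each of its starts is given on its own with that gene. Without Pol II IAA replicate 2 or without Pol II Control replicate 2 the Pol II count was 9, and without the depth scaling it was 2. Without Ser2P Control replicate 2, which lacked a start peak at CDKN1A, BAX, FAS and GDF15, the Ser2P count was 9. Shares of all genes under these changed settings are not given, so 69.7% and 91.7% are no background for these counts.

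**Figure D2:**
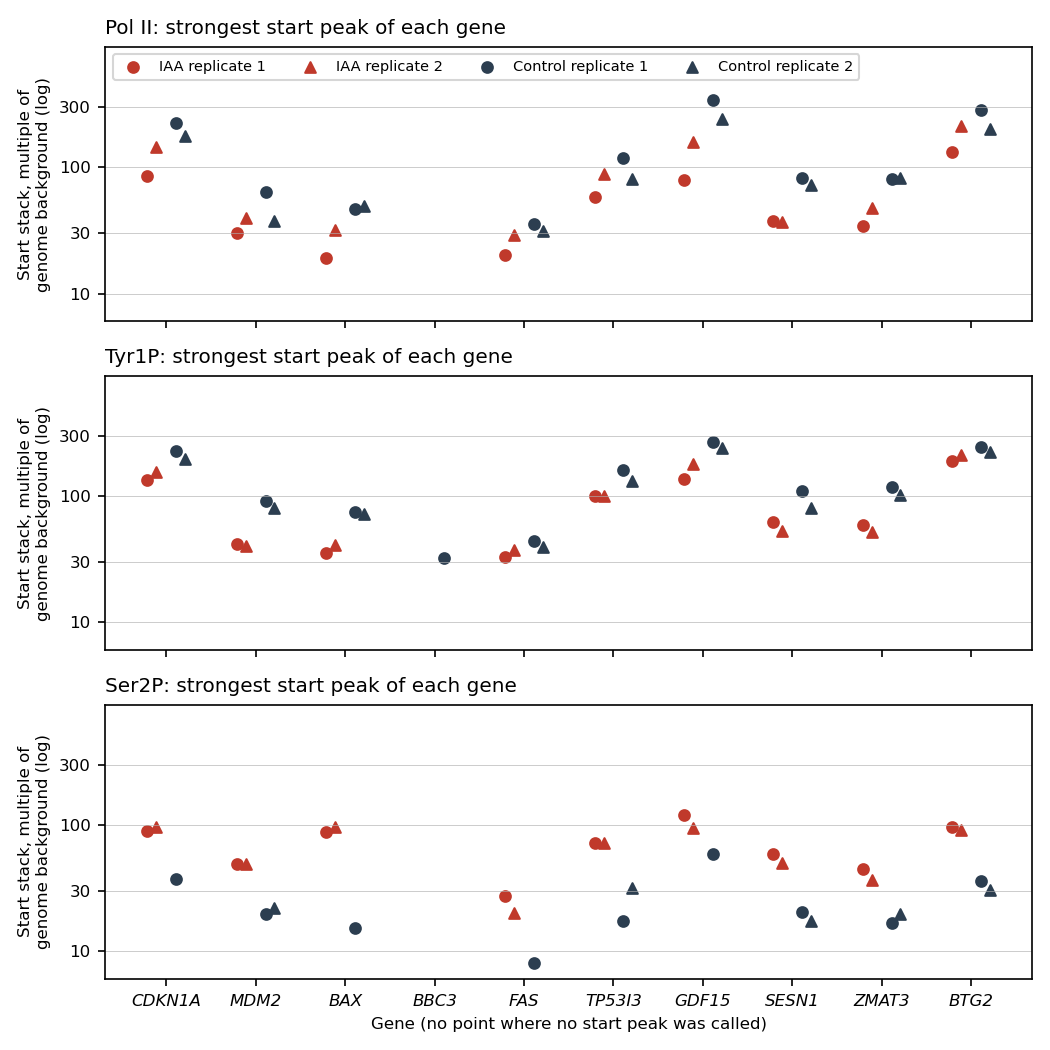
Fragments stacked at the strongest start summit of each gene (for SESN1 either of its starts), as a multiple of the genome-wide background of the library (vertical axis, log scale), for Pol II, Tyr1P and Ser2P, IAA left of Control. At BTG2 the Ser2P points sit at 96.6 and 91.3 in IAA, above 35.7 and 30.2 in Control, and at CDKN1A the Tyr1P points sit at 135 and 155 in IAA, below 229 and 198 in Control.

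Among the genes of cell cycle arrest, CDKN1A encodes p21, an inhibitor of cyclin-dependent kinases, and lies at chr6:36676463-36687332 on the plus strand. Its start peak lay at the listed start 2.251 kb inside the annotated gene, and the lncRNA gene DINOL starts at 2.1 kb, just upstream of it. The Pol II height there was 85.9 and 144 times background in IAA, against 225 and 176 in Control. The Tyr1P height was 135 and 155 in IAA, against 229 and 198 in Control. Both pairs of groups stood apart, with IAA lower. Ser2P had a start peak 2170 and 2182 bp wide in IAA, against 357 bp in Control replicate 1 and no start peak in Control replicate 2. In Control replicate 1 the same stretch was split between that start peak and an interior peak 1628 bp wide. Control replicate 2 had an interior peak of 302 bp within it. In Control, the strongest Ser2P peak of CDKN1A lay past its end, with ranks 589 and 582 in its own list by the deposited −log10 q. In IAA replicate 2 the start peak was instead the strongest, at rank 3070, while in replicate 1 the strongest peak still lay past the end, at rank 4816. Ranks, folds and q values are the authors' and describe a peak within its own list. Ranks in lists of different lengths show no change.

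BTG2, an antiproliferative cofactor of mRNA deadenylation at chr1:203305519-203309602, plus strand, had a start peak near the top of every numbered Pol II and Tyr1P list. It ranked 125 and 40 in IAA, against 116 and 90 in Control, and for Tyr1P 41 and 49 in IAA, against 67 and 61 in Control. The Pol II height was 131 and 214 times background in IAA, against 286 and 200 in Control, and these groups overlapped. The Tyr1P height was 190 and 212 in IAA, against 244 and 223 in Control. The Ser2P height was 96.6 and 91.3 in IAA, against 35.7 and 30.2 in Control, which stood clearly apart. Its Ser2P start peak was 938 and 847 bp wide in IAA, against 624 and 493 bp in Control. The lncRNA gene BTG2-DT starts 0.19 kb upstream, so its reads and those of BTG2 cannot be told apart here.

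MDM2, the ligase that degrades p53 and is itself a p53 target, lies at chr12:68808172-68850686, plus strand. RefSeq lists a first start and a second one 0.85 kb inside, which is the promoter known to respond to p53. Pol II summits lay at 0.117 and 0.105 kb in IAA, against 0.056 and 0.068 kb in Control, for the first start. Near the second start they lay at 0.852 and 0.826 kb in IAA, against 0.729 and 0.9 kb in Control, and Control replicate 2 had a further one between them at 0.488 kb. Separate Pol II peaks at both starts were thus called in all 4 numbered libraries. The deposited fold at the first start was 6.59 and 6.44 in IAA, against 10.5 and 8.69 in Control, and at the second start 3.96 and 4.03, against 3.44 and 5.01. The first start had the stronger peak in all 4 numbered libraries. The Pol II height at the MDM2 start was 30.3 and 40 times background in IAA, against 64.3 and 37.6 in Control, which overlapped. The Tyr1P height was 41.9 and 40.4 in IAA, against 91.2 and 81.2 in Control, and the Ser2P height was 49.3 and 49.4, against 19.6 and 22.1. Both of these stood apart, in opposite directions. Ser2P had 13 and 9 peaks over MDM2 in IAA, against 8 and 3 in Control, with 11 and 7 interior summits, against 5 and 2. In IAA the interior Ser2P summits ran from 10.7 to 37.8 kb in replicate 1 and from 13.0 to 37.8 kb in replicate 2. The end of CPM overlaps the end of MDM2.

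Of the apoptosis genes, BBC3 encodes PUMA, a BH3-only activator of apoptosis, and lies at chr19:47220824-47232860 on the minus strand. In the numbered libraries it was the only gene of the 10 whose strongest Pol II and Tyr1P summits both lay at least 1 kb nearer the 5′ end in IAA. In Control its strongest Pol II peak lay inside the gene, with summits 6.53 and 6.55 kb from the 5′ end. In IAA no peak with its summit there was called, and the strongest summits lay at 2.51 and 2.55 kb. The peaks were 4164 and 2367 bp wide in IAA, against 1354 and 1461 bp in Control. The unnumbered libraries did not show this move. Their strongest Pol II summit lay at 6.52 kb under each of the labels IAA+EGF, EGF and IAA, against 6.55 kb in Control. Weaker summits lay at 2.50 kb in the library labelled IAA+EGF and at 2.15 and 4.94 kb in that labelled EGF. No start peak of Pol II was called at BBC3 in any library.

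With the other antibodies, too, the strongest summit at BBC3 lay nearer the 5′ end in IAA. The strongest Tyr1P summit lay at 4.95 and 5.01 kb in IAA, against 6.55 and 6.53 kb in Control. The strongest Ser2P summit lay at 4.74 and 4.67 kb in IAA, against 6.53 and 6.51 kb in Control. Tyr1P IAA replicate 2 still had a peak with its summit at 6.50 kb, with a fold of 2.29. A strongest summit at least 1 kb nearer the 5′ end in both IAA libraries was found at 1 of the 10 genes for Pol II, BBC3, against 3.48% of all genes, and at 1 of 10 for Tyr1P, again BBC3, against 2.51%. For Ser2P it was found at 2 of 9, BBC3 and BAX, against 7.8%. This measure was chosen after the values of BBC3 were seen.

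Pol II was still stacked high over BBC3 in IAA, over a wider stretch. The Pol II stack at the strongest summit was 195 and 227 times background in IAA, against 382 and 265 in Control. The local background that the deposited fold implies around these summits was 84.2 and 103 times the genome-wide background in IAA, against 26.2 and 19.8 in Control, and the deposited fold was 2.3 and 2.2 in IAA, against 13.7 and 12.7 in Control. For Tyr1P the local background at the strongest summit was 82.7 and 85.4 in IAA, against 29.7 and 28.5 in Control, and for Ser2P 80.2 and 72.2, against 19.7 and 25.8. In all 3 antibodies the IAA values were higher and the groups did not overlap. The fold is taken over this local background, so the lower folds in IAA do not measure lower stacks alone. The part of the local background in the calls missing in IAA, at 6.5 kb and past the end, was not tested. Pol II peaks covered 18.9% and 19.4% of the BBC3 window in IAA, against 7.19% and 7.36% in Control. A higher Pol II covered share was found at 2 of the 10 genes, BBC3 and TP53I3, against 11.1% of all genes, and a lower one at none, against 26%. For Tyr1P it was higher at 4 of the 10 (BAX, BBC3, SESN1 and BTG2), against 12.4% of all genes, and lower at FAS, 1 of the 10, against 33.9%. Interior Tyr1P peaks numbered 3 and 4 at BBC3 in IAA, against 1 and 1 in Control, and more of them were found at 1 of the 10 genes, BBC3, against 1.47% of all genes. The Pol II and Tyr1P shares of all genes given here include genes without a peak. They are not given for genes with a Pol II start peak, which 9 of the 10 genes had, so they are no like-for-like background. The Control peak at 6.5 kb, chr19:47226117-47227470 in Pol II Control replicate 1, holds the annotated microRNA genes MIR3190 and MIR3191.

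**Figure D3:**
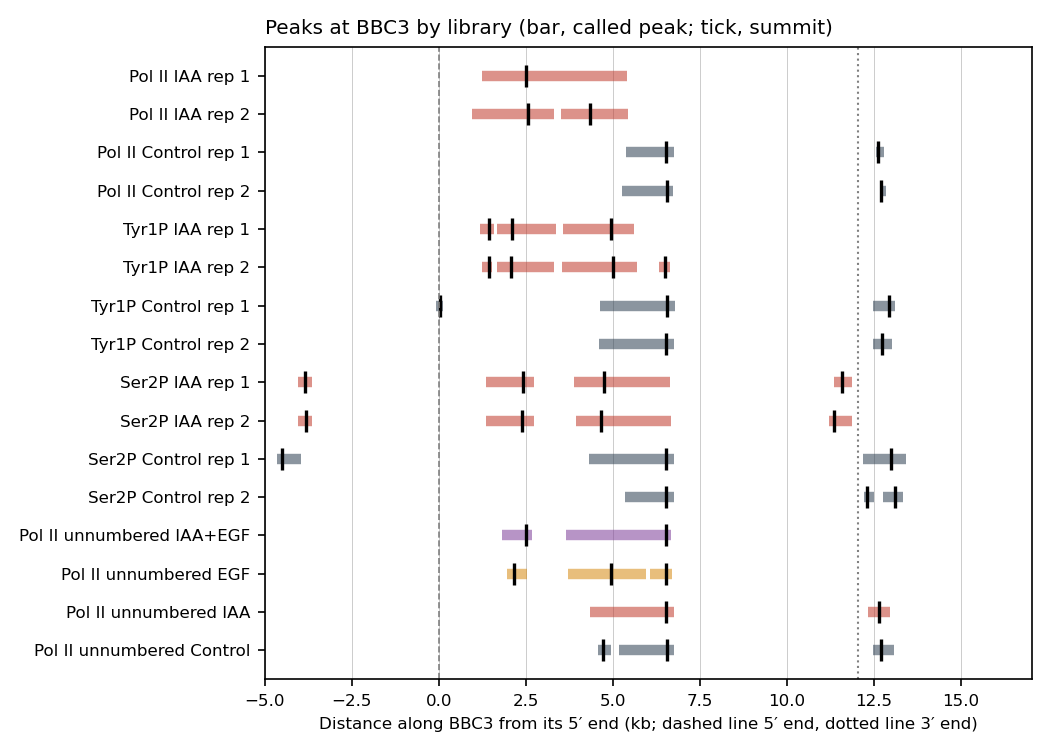
Called peaks (bars) and their summits (ticks) along BBC3 in every immunoprecipitated library, with distance from the 5′ end in kb on the horizontal axis and IAA rows above Control rows of the same antibody. Strongest Pol II summits sit at 2.51 and 2.55 kb in IAA, against 6.53 and 6.55 kb in Control, and the Pol II and Tyr1P peaks just past the 3′ end appear in Control rows only among the numbered libraries.

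Past the end of BBC3 a Pol II peak lay 590 and 663 bp downstream in Control, and none was called in IAA. A Tyr1P peak lay 904 and 701 bp downstream in Control, and again none in IAA. Loss of every peak from 1 kb before to 5 kb past the end was found at 1 of the 10 genes for both antibodies, against 2.16% of all genes for Pol II and 3.52% for Tyr1P. These shares include genes with no such peak in Control, which could not lose one, so they are no like-for-like background. Of the 10 genes, only CDKN1A, BAX, BBC3, TP53I3 and GDF15 had such a Pol II peak in both Control libraries. For Tyr1P those genes and BTG2 did. Ser2P summits lay at -461 and -672 bp in IAA, which is before the end, against 953 and 1063 bp past it in Control. A Ser2P summit that lay farther upstream in both IAA libraries was found at 1 of 5 genes, BBC3, against 19.8% of all genes.

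BAX, which forms pores in the mitochondrial membrane, lies at chr19:48954875-48961798, plus strand. Its Pol II start height was 19.2 and 31.7 times background in IAA, against 46.4 and 49.5 in Control, and the Tyr1P height 35.6 and 41.0, against 74.3 and 72.5. Ser2P had a start peak in both IAA libraries, at 87.3 and 96.8 times background, against 15.1 in Control replicate 1 and none called in Control replicate 2. The strongest Ser2P summit of the window lay at 0.075 and 0.033 kb, the BAX start, in IAA, against 12.5 and 12.5 kb in Control, in peaks that reach into the window from past the start of the neighbouring ferritin gene FTL at 10.43 kb. The strongest Pol II peak of the window lay at the FTL start in every library, so it does not describe BAX.

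FAS, a death receptor of the tumour necrosis factor receptor family, lies at chr10:88964050-89017059, plus strand, and its listed starts lie 26.7 to 27.4 kb inside the annotated gene. ACTA2 starts at 27.29 kb on the other strand, so peaks there may belong to either gene. The Pol II height was 20.2 and 29.2 times background in IAA, against 35.7 and 31.2 in Control. For Tyr1P it was 33.1 and 37.2 in IAA, against 44.1 and 39.6 in Control, and neither pair of groups overlapped. Ser2P had 2 and 3 peaks at FAS in IAA, against 1 and 0 in Control. A Ser2P peak lay 1957 and 1870 bp past the FAS end in IAA, and no peak from 1 kb before to 5 kb past the end was called in Control. Such a gain was found at 2 of the 10 genes, FAS and ZMAT3, against 11.2% of all genes. Both counts include genes that already had such a peak in Control.

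Of the genes that handle oxidative and metabolic stress, TP53I3 encodes a quinone oxidoreductase-like enzyme at chr2:24077433-24084834, minus strand. Its Pol II start height was 58.6 and 88.3 times background in IAA, against 120 and 80.6 in Control, which overlapped. The Tyr1P height was 100 and 101 in IAA, against 161 and 132 in Control, and the Ser2P height 72.2 and 72.3, against 17.4 and 31.4. Its strongest Ser2P peak lay near 7.9 kb, at the starts of FAM228B and SF3B6, with ranks 50 and 87 in IAA, against 458 and 179 in Control. That peak is the neighbours' as much as that of TP53I3.

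SESN1, a sestrin that restrains growth signalling under stress, lies at chr6:108984309-109094846, minus strand, and is the longest of the 10 genes. It has listed starts at its 5′ end and 85.3 kb inside, and both carried Pol II, Tyr1P and Ser2P peaks in all 12 numbered libraries. A further Pol II peak upstream of the 5′ end, with summits at -0.784 and -0.536 kb, was called in both IAA libraries and in no other Pol II library. CEP57L1 starts 0.32 kb upstream on the other strand. At the 5′ start the Pol II height was 37.4 and 39.2 times background in IAA, against 76.8 and 60.2 in Control. At the inner start it was 23.2 and 36.7 in IAA, against 82.1 and 73.1 in Control. Tyr1P stood at 53.1 and 52.6 at the 5′ start in IAA, against 110 and 87.9 in Control, and at 61.9 and 52.6 at the inner start, against 83.8 and 79.9. Ser2P stood at 58.5 and 49.8 at the 5′ start in IAA, against 20.6 and 16.3 in Control, and at 40 and 38.7 at the inner start, against 14.8 and 17.4. At each start Pol II and Tyr1P were lower in IAA and Ser2P was higher, without overlap. Interior Ser2P summits numbered 3 and 2 in IAA, against 0 and 0 in Control, and the IAA libraries shared the ones at 47.4 and 47.5 kb. Such a gain of interior Ser2P peaks was found at 2 of the 10 genes, SESN1 and ZMAT3, against 20.7% of all genes. Both counts include genes that already had interior Ser2P peaks in Control.

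GDF15, a secreted stress cytokine, lies at chr19:18386158-18389176, plus strand. Its Pol II start height was 79.8 and 158 times background in IAA, against 345 and 242 in Control. The Tyr1P height was 138 and 179 in IAA, against 267 and 242 in Control. Both were lower in IAA without overlap. The start peak ranked 2170 and 639 in the Pol II lists of IAA, against 114 and 116 in Control. Ser2P had a start peak in both IAA libraries, at 120 and 94.5 times background, against 58.5 in Control replicate 1 and none called in Control replicate 2.

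ZMAT3, a zinc finger protein that binds RNA, lies at chr3:179017223-179072513, minus strand. Its start peak lay near the listed start 0.704 kb inside the gene, with a Pol II height of 34.3 and 47.5 times background in IAA, against 80.4 and 81.7 in Control. For Tyr1P it was 59.4 and 51.9 in IAA, against 118 and 101 in Control, and the Ser2P height 44.4 and 36.4, against 16.7 and 19.8. A second, interior Pol II peak stood near 35 kb in all 8 Pol II libraries and all 4 Tyr1P libraries, away from any listed start. Its Pol II summits lay at 34.8 and 35.0 kb in IAA, against 35.1 and 34.9 kb in Control, with folds of 5.57 and 5.90 in IAA and 5.87 and 5.99 in Control. Ser2P had a peak at this place in both IAA libraries, with summits at 35.0 kb in each, and in neither Control library.

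The start summits of several genes lay farther downstream in IAA. At CDKN1A the Pol II summit lay 65 and 72 bp past the listed start in IAA, against 29 and 32 bp in Control, and the Tyr1P summit 58 and 53 bp, against 27 and 32 bp. At BTG2 it lay at 58 and 77 bp in IAA, against 35 and 34 bp in Control for Pol II, and at 55 and 53 bp, against 37 and 34 bp, for Tyr1P. At GDF15 it lay at 57 and 52 bp in IAA, against 30 and 30 bp in Control for Pol II, and at 50 and 57 bp, against 20 and 32 bp, for Tyr1P. At MDM2 it lay at 112 and 100 bp, against 51 and 63 bp in Control for Pol II, and at 83 and 87 bp, against 46 and 46 bp, for Tyr1P. In each of these 4 genes both antibodies had the IAA summits farther downstream with no overlap. For Pol II this was 4 of 9 genes, against 47.4% of all genes, and for Tyr1P 5 of 9, with TP53I3, against 46.9%, so these shares are near the background. ZMAT3 went the other way, with Pol II summits at -202 and -224 bp from its listed start in IAA, against -104 and -141 bp in Control, a minus sign meaning upstream. That was 1 of 9 genes, against 23.1% of all genes, and for Tyr1P also 1 of 9, ZMAT3 again, against 21.7%. This measure too was chosen after its values were seen.

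**Figure D4:**
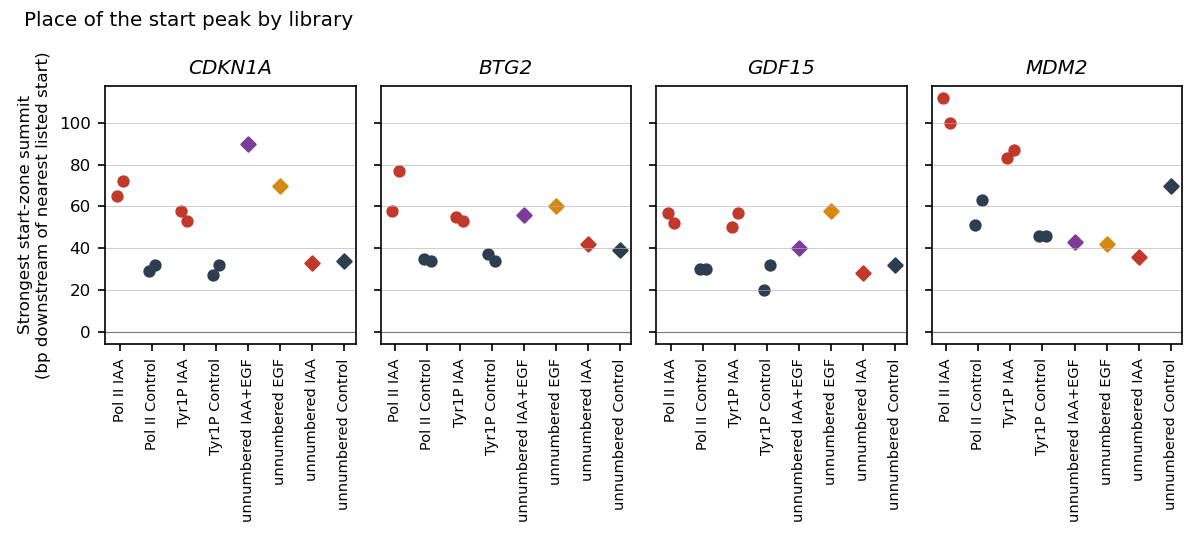
Distance of the strongest start summit from the nearest listed start (vertical axis, bp downstream) at CDKN1A, BTG2, GDF15 and MDM2, for numbered Pol II and Tyr1P libraries (circles) and unnumbered Pol II libraries (diamonds), treated left of Control. At CDKN1A the Pol II circles sit at 65 and 72 bp in IAA, against 29 and 32 bp in Control.

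In the unnumbered Pol II libraries the summits of CDKN1A, BTG2 and GDF15 in the library labelled IAA lay close to those of Control. At CDKN1A the summit lay at 90 bp in the library labelled IAA+EGF, 70 bp in that labelled EGF and 33 bp in that labelled IAA, against 34 bp in Control. At BTG2 it lay at 56, 60 and 42 bp in the same order of labels, against 39 bp in Control, and at GDF15 at 40, 58 and 28 bp, against 32 bp. At MDM2 the order differed, with 43, 42 and 36 bp, against 70 bp in Control. At BBC3 the peak past the end was called in the library labelled IAA, 611 bp downstream, and in Control, 672 bp downstream, and in neither of the others. Its local background at the 6.5 kb summit was 64.9 in IAA+EGF, 71.3 in EGF and 36.5 in IAA, against 31.1 in Control. For these measures at CDKN1A, BTG2 and BBC3, though not for the summit at GDF15, the library labelled EGF lay nearer to IAA+EGF than the library labelled IAA did. By their titles those libraries share EGF, and by file name the library titled EGF would be IAA. Which is right could not be settled. The lower start heights of the numbered IAA libraries were not seen under the label IAA. There the height was above that of Control at 8 of 9 genes, all but FAS, against 5 of 9 under EGF and 1 of 9, BTG2, under IAA+EGF. The share of all genes was not taken for these height counts. Whether they are particular to the 10 genes was therefore not tested. At CDKN1A it was 168 times background in IAA+EGF, 205 in EGF and 199 in IAA, against 170 in Control. At GDF15 it was 199, 229 and 242 in the same order of labels, against 207 in Control, and at MDM2 49.4, 65.9 and 83.7, against 62.7. ZMAT3 had 37.5, 58.3 and 87.9, against 65.2 in Control. With 1 library per label there is no replicate check. Start peaks of Pol II were present at 9 of the 10 genes in all 4, and none was gained or lost against Control under any label, where 0.531% of all genes gained and 1.92% lost one under IAA+EGF, 0.519% and 1.64% under EGF, and 0.474% and 0.98% under IAA.

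Past the ends of CDKN1A and GDF15, Ser2P summits lay farther downstream in IAA, the opposite direction to BBC3. The strongest Ser2P summit past the CDKN1A end lay 1010 and 1023 bp downstream in IAA, against 557 and 546 bp in Control. At GDF15 it lay 2124 and 2115 bp downstream in IAA, against 1168 and 1221 bp in Control. The neighbouring gene LRRC25 lies at chr19:18391137-18397622. The IAA summits fell inside it and the Control summits before it, so the IAA peaks may belong to either gene. Tyr1P followed at GDF15, with 1556 and 1544 bp in IAA, against 962 and 1095 bp in Control, and at CDKN1A, with 895 and 988 bp, against 615 and 887 bp. Pol II did so at GDF15, with 1560 and 1131 bp, against 1080 and 990 bp, and overlapped at CDKN1A, with 614 and 902 bp in IAA, against 490 and 1033 bp in Control. A strongest summit farther past the end in both IAA libraries was found for Ser2P at 3 of 5 genes (CDKN1A, BAX and GDF15), against 33.4% of all genes. For Tyr1P it was found at 4 of 5 (CDKN1A, BAX, TP53I3 and GDF15), against 30% of all genes, and for Pol II at 2 of 4 (BAX and GDF15), against 36.3%. At BAX for each antibody and at TP53I3 for Tyr1P the IAA summits lay at the start of a neighbour. This measure was also chosen after its values were seen.

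**Figure D5:**
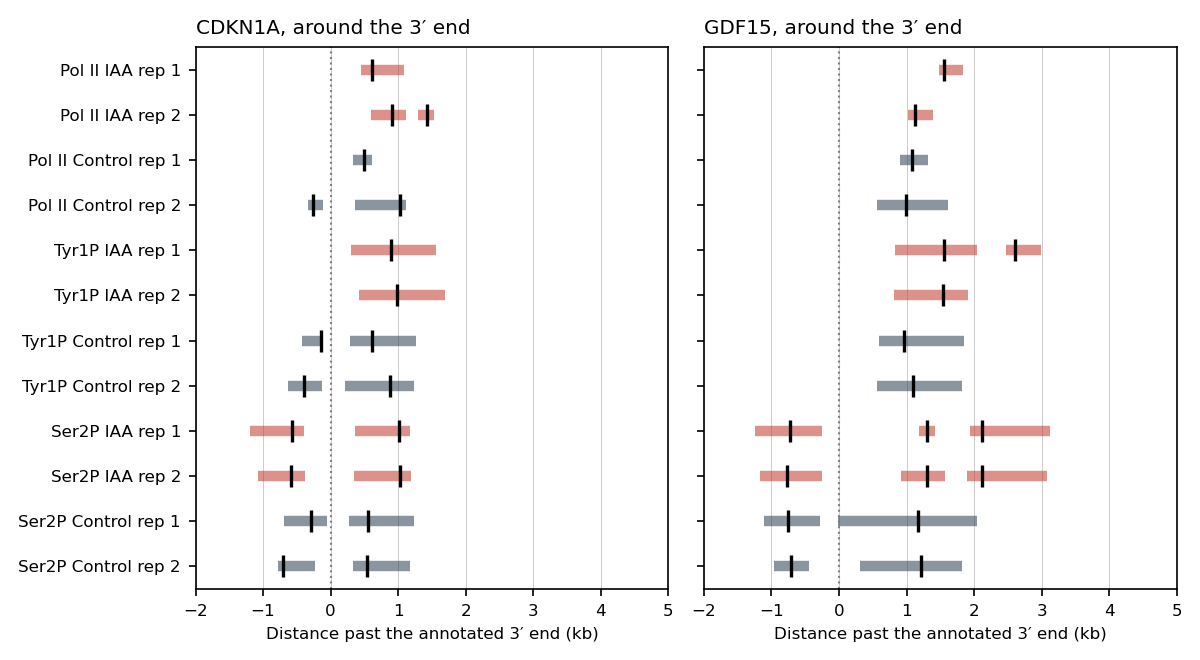
Called peaks (bars) and summits (ticks) around the annotated 3′ ends of CDKN1A and GDF15 by library, with distance past the end in kb on the horizontal axis and IAA rows above Control rows. The strongest GDF15 Ser2P summits sit at 2124 and 2115 bp in IAA, inside the neighbouring gene LRRC25, against 1168 and 1221 bp in Control.

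Other genes of the pathway were counted by the same rule for Ser2P peaks. Of 30 other p53 targets, 21 had more Ser2P peaks in both IAA libraries, against 51.4% of all genes, and 3 (GADD45A, TRIM22 and PLK2) had fewer, against 0.416%. The largest differences were at TNFRSF10B, a death receptor, with 18 and 15 in IAA, against 5 and 2 in Control, and at POLH, a translesion polymerase, with 16 and 11, against 5 and 2. XPC, a sensor of DNA damage, had 11 and 7 in IAA, against 2 and 1 in Control, and EPHA2, a receptor tyrosine kinase, had 16 and 8, against 6 and 3. Of 10 regulators of p53, 9 had more Ser2P peaks, among them the acetyltransferase genes CREBBP, with 31 and 27 in IAA, against 4 and 2 in Control, and EP300, with 23 and 19, against 4 and 3. Of 12 genes of the p21-DREAM arm, which p53 represses through p21, 7 had more Ser2P peaks, with TOP2A at 7 and 8 in IAA, against 3 and 0 in Control, and CCNB2 at 6 and 7, against 2 and 1. The median difference in Ser2P peaks was 3.25 for the other targets, 8 for the regulators and 1.5 for the DREAM arm, against 1.25 for the 10 genes and 1.5 over all genes. Peak counts grow with gene length, and no test was made between lists. Over the 16 immunoprecipitated libraries, the genes whose covered share went most like the mean of the 10 windows were MTRFR, HDAC1 and IFRD1, with Pearson r of 0.984, 0.984 and 0.979 among 10301 genes with a peak in every library. Those libraries share antibodies and list lengths, so the r values are a description.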

How the data were processed

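ChIP-seq was deposited as 1 peak list per library for 16 immunoprecipitated and 2 input libraries. The submitters' processing notes name MACS2 2.2.7.1 among the tools, beside Bowtie2 2.3.4.1, Trim Galore 0.6.6, deepTools 3.5.1 and Picard 2.25.7, and hg38 as the build. Their options, and whether input served as the control, were not given in the sources used here. Each deposited list holds the authors' fold enrichment, −log10 p, −log10 q and score of a peak, with its summit.

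From these, the fragments stacked at a summit and the local background were solved from the deposited fold and −log10 p (tolerance 0.0002, tested on simulated data), and depth was taken from the lowest background shared by at least 5 peaks. No read totals are in the lists, so depth is an estimate, and intervals on counts were not computed. The highest stack in Pol II Control replicate 1 was 380, which is 2 per position of its shortest peak (190 bp), so the strongest peaks can be flattened.

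Peaks sharing at least 1 bp with an input peak were removed (0.276% to 2.31% of a list). Peaks were assigned by summit, within 1 kb of a listed start or an annotated end, or in between. Starts and strands came from RefSeq promoters (15812 of 19974 protein-coding genes). A gene was called where both IAA libraries lay outside both Control libraries, and the same share over all genes is the background. The genes and lists were chosen with earlier results of these data known, so no p-value over them is given. All 10 genes are named. One gene of the other lists is not reported here. Of each other list, up to 4 called genes with the largest Ser2P difference are named. Alternatives tried were equal list lengths, a −log10 q minimum of 5, 2 kb flanks, summits inside the window, joining peaks under 1 kb apart, keeping input peaks, leaving out each replicate, the longest gene or BBC3, adding unnumbered libraries, and a replicate block. Python 3.11.15, numpy 2.4.6, pandas 2.3.3 and matplotlib 3.10.9 were used.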

Additional observations from a re-analysis of the deposited data

How the results depend on the processing

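Ser2P peaks at the 10 genes, 17 more in IAA than in Control on average, came to 1 more when the lists were cut to equal length, and the genes called for more Ser2P peaks came to 1 in place of 6. The Ser2P differences at MDM2 and at BBC3 turned round there, both to -0.5. The cut removes the weaker peaks of the longer IAA lists by construction. Counts of genes called under a changed setting, here and below, come without the share of all genes under that setting. Without BBC3, a setting chosen after seeing the data, the Pol II covered difference was -0.0289 percentage points in place of 0.618, that of Tyr1P came to 0.0106 and the Tyr1P peak difference to -1.5. Leaving out 1 library gave Ser2P differences of 11 to 23 peaks, 6 to 8 genes called and a covered difference of 1.573 to 4.45 percentage points, against 3.01.

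The Pol II difference of 0.5 peaks became 3.5 with equal lists, and -1 to 2 without 1 library. Genes with fewer Pol II peaks numbered 0 in the main comparison, 1 with peaks under 1 kb apart joined, and 0 to 1 without 1 library. The Tyr1P difference of -0.5 peaks was 2 with equal lists, 0 at a −log10 q of at least 5, 0 with summits inside the window, -3.5 with peaks joined and -1 to 0 without 1 library. The Tyr1P covered difference of 0.359 percentage points was 0.533 with equal lists, 0.195 with 2 kb flanks, 0.704 with peaks joined, 0.445 without the longest gene and 0.207 without peaks at neighbours' starts, a setting chosen after seeing the data. Genes with fewer Tyr1P peaks numbered 2, and 1 with equal lists or the q minimum. The cause of these moves was not tested.

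In the unnumbered libraries the summed difference from Control was -7 for IAA+EGF, -6 for EGF and -3 for IAA, and with equal lists -3, -2 and 0. Genes with a lower Pol II start stack numbered 6, and 2 unscaled. Without 1 library they numbered 6 to 9, and the Ser2P genes with a higher start stack 5 to 9.

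Replicate numbers were shared between groups, but with 2 pairs they mark no known pairing. Same-numbered deviations correlated at 0.239 for Pol II, 0.017 for Tyr1P and -0.0837 for Ser2P. With the replicate block the Ser2P difference was again 17 peaks, and 6 genes had a lower Pol II start stack.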
